A study of Mus musculus with 12 samples.

Results

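The 3 libraries made from 1 myofiber each were compared with the 3 libraries made from pools of 5 myofibers, over every gene counted. These 6 libraries were chosen by their labels alone, out of 12 in the series, and the count table holds 55573 genes. The fibers were those of a fast muscle of the lower leg, the extensor digitorum longus, taken from C57BL/6 mice. Each library was prepared with the SMART-Seq HT kit, which copies the RNA of a few cells into full-length cDNA. The labels give no treatment, age or sex. They state that single fibers were lysed in the kit's own buffer and make no separate statement on how the pools were lysed. They also do not say whether each library of a group had its own animal, and the p-values below then measure only the spread between these libraries, which may be technical. Since every library starts from whole fibers with whatever adheres to them, fewer cells of a type and less RNA per cell cannot be told apart.

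A myofiber is a single multinucleated cell packed with sarcomeres. It is wrapped in a basal lamina that also houses satellite cells, the stem cells of muscle, and capillaries run along its length between neighbouring fibers. Adult mouse fibers are typed by their main myosin heavy chain: Myh7 in slow type I fibers, and Myh2, Myh1 and Myh4 in the fast types IIa, IIx and IIb. A library of 1 fiber therefore reads the type of that fiber, and a pool reads a mixture.

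Single fibers 1 to 3 gave 19001774, 27787120 and 12685900 counted reads, and pools 1 to 3 gave 20880728, 8434050 and 24719718. The libraries did not group by their labels. Single fiber 2 and pool 3 differed from each other by a median of 0.34 log2 units per gene over 4888 genes, less than single fiber 2 differed from the other single fibers (0.68 and 0.73) and less than pool 3 differed from the other pools (1.03 and 1.02). Pools 1 and 2 lay 0.31 apart and single fibers 1 and 3 lay 0.45 apart. In the summed capillary and red blood cell markers, in contrast, single fiber 2 lay with the single fibers. Pool 3 lay above all single fibers there but below the other pools, as given below. Whether the labels of these libraries or their preparation were at odds with the rest cannot be told from the files, and every group value below includes them unless a fit without one is named. All 6 libraries carried Y-linked reads, with 532 to 2075 reads on Ddx3y and 0 to 33 on Xist.

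**Figure D1:**
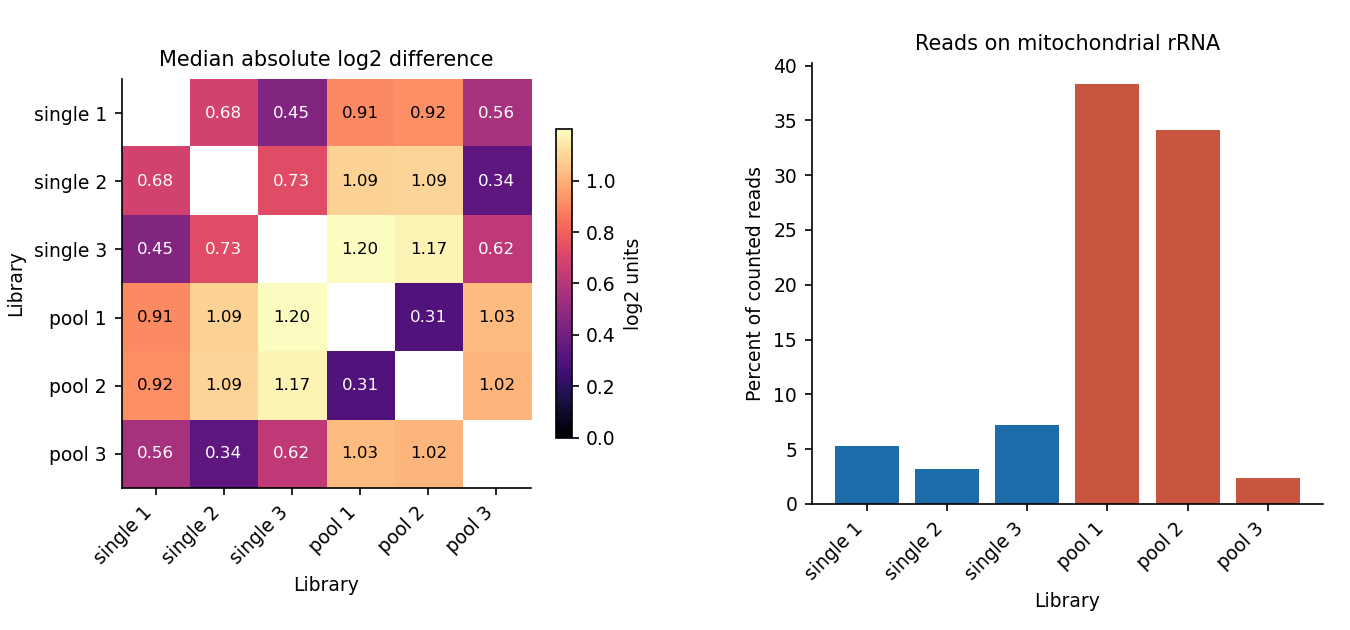
Left, the median absolute log2 difference between each pair of the 6 libraries over 4888 genes, in log2 units, with darker squares for closer libraries. Right, the percent of each library's counted reads on the mitochondrial rRNAs mt-Rnr1 and mt-Rnr2. Single fiber 2 sits closest to pool 3 (0.34), and the rRNA share is 38.3% and 34.2% in pools 1 and 2 and 2.39% to 7.21% in the other 4 libraries.

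Between single fibers and pools, 2 genes passed the test, both higher in the pools: Hba-a2, an alpha-globin gene of red blood cells, and Ctla2a, which encodes a cysteine protease inhibitor. The test was edgeR's quasi-likelihood test on 12700 genes with a Benjamini-Hochberg adjusted p under 0.05, so 0.0157% of genes were called, and 0 genes were called higher in single fibers. At an unadjusted edgeR p under 0.05 there were 1132 genes (8.91%), 897 higher in pools (7.06%) and 235 higher in single fibers (1.85%). The 3 values of one group all lay above the 3 of the other for 1051 genes higher in pools (8.28%) and 654 higher in single fibers (5.15%). These shares are the background against which the gene lists below are read. The median log2 fold change over all tested genes, written here as single fibers minus pools, was 0.08. Scaling the libraries by their upper quartile shifted that median by -0.24 and the split at an unadjusted edgeR p under 0.05 to 1184 genes higher in pools and 125 higher in single fibers, with the same count of 2 calls.

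The number of genes that passed differed widely between fits. DESeq2 called 422 genes (3.32%), of which 28 were higher in single fibers (0.22%) and 394 in pools (3.1%). edgeR fitted on all 12 libraries called 340 (2.68%), 13 higher in single fibers (0.102%) and 327 in pools (2.57%). With no filter on low counts edgeR called 768 of 41786 genes (1.84%), 74 in single fibers (0.177%) and 694 in pools (1.66%), and over the 4910 genes that averaged at least 10 CPM it called 8 (0.163%), all 8 in pools (0.163%). limma-voom called 0, with 653 genes at an unadjusted p under 0.05 (203 and 450). edgeR called 0 when pool 1, pool 2 or any of the single fibers was left out, with 557 to 1839 genes at an unadjusted p under 0.05. Without pool 3 it called 833 of 15081 genes (5.52%), 231 higher in single fibers (1.53%) and 602 in pools (3.99%). Both Hba-a2 and Ctla2a were among the calls of DESeq2, of the 12-library fit and of the fit without pool 3. Calls from that last fit are named below as such, since it was run as an alternative. Pool 3 was the pool closest to each single fiber (0.34 to 0.62 log2 units per gene), so leaving it out widens the difference by construction. Genes that pass the filter through the pools alone still had to differ in it. The fit without single fiber 2 is given below for genes lowest there among the single fibers, so it raises their log2 fold change by construction.

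Ctla2a, which lies on the minus strand of chromosome 13 (GRCm38, 60934155 to 60936625), had 0, 0 and 0.0629 CPM in single fibers and 135, 98.3 and 21.3 CPM in the pools, CPM being reads scaled to a common library size with the trimmed mean of M-values (TMM). That is 1 read in the 3 single fibers together against 3611 in the pools. The ratio of scaled reads was 4269 (95% counting interval 766 to 168674), and Ctla2a rose in the pools with an edgeR adjusted p = 0.0436. All 3 pools were above all 3 single fibers, and pool 3 was the lowest pool. Ctla2a passed the filter on low counts through the pools alone, so it had to differ. The separation of its groups is therefore only a description.

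Capillary genes were almost absent from single fibers and present in every pool. The 16 endothelial markers had a summed level of 12.6, 3.21 and 8.05 CPM in single fibers 1 to 3 and of 668, 583 and 66.1 CPM in pools 1 to 3. Of the 16, 15 passed the filter on low counts. All 15 had higher fitted values in pools and an unadjusted edgeR p under 0.05, for 13 the groups did not overlap, and the median log2 fold change was -6.86. Genes that pass the filter through the pools alone had to differ, so these counts and the median describe the list and support nothing. None passed the adjusted edgeR test on 6 libraries, where the lowest adjusted p of the list was 0.0584, for Fabp4. Set against the muscle's own RNA, the list had 6.63, 1.92 and 6.39 CPM per 100000 CPM of mature fiber markers in single fibers and 843, 1223 and 36.7 in the pools.

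Fabp4, the fatty acid binding protein of capillary endothelium and fat cells, was at 0.0520, 0 and 0.315 CPM in single fibers against 163, 106 and 28.5 CPM in pools. Its log2 fold change was -9.76 ± 1.26 (SE, n = 3 libraries a group), with an edgeR adjusted p = 0.0584. Cd93, a lectin-like receptor of endothelial cells, had 1 read in the single fibers together and 76.1, 55.3 and 6.91 CPM in the pools, with a ratio of scaled reads of 2244 (counting interval 402 to 88679) and an edgeR adjusted p = 0.0527. For both genes the groups were far apart, and pool 3 carried the least of the pools. Both passed the filter through the pools alone, so they had to differ.

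Aqp1, the water channel of capillary walls, had 1 read in single fibers and 78.6, 64.4 and 4.04 CPM in pools, with an edgeR adjusted p = 0.0860. Gpihbp1 carries lipoprotein lipase across the capillary wall. It had 0 reads in the 3 single fibers and 44.6, 29.9 and 6.04 CPM in the pools, at least 451-fold higher when 3 counts are allowed to the single fibers as a group, with an edgeR adjusted p = 0.0978. Adgrf5, an adhesion receptor, and Bcl6b, a transcriptional repressor, both had 1 read in single fibers and stood at 62.0, 79.3 and 3.17 CPM and at 32.8, 13.5 and 1.96 CPM in the pools. Neither passed, with edgeR adjusted p = 0.0978 and 0.128. Akap12, a scaffold for protein kinase A, showed the same order, with 0, 0 and 0.0629 CPM against 53.3, 33.8 and 7.14 CPM and an edgeR adjusted p = 0.0527. These genes too passed the filter through the pools alone.

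The junction and receptor genes that define endothelium followed the same order of libraries. Pecam1, an adhesion molecule of endothelial junctions, had 0, 0 and 0.0629 CPM against 31.0, 23.3 and 1.47 CPM. Cdh5, the cadherin of those junctions, had 0.104, 0 and 0.252 CPM against 34.1, 53.9 and 2.30 CPM, and Esam, another junction protein, had 0 reads in single fibers against 14.8, 21.3 and 1.09 CPM. Each was detected in all 3 pools. The VEGF receptor Kdr stood at 0.312, 0.235 and 0 CPM against 29.7, 37.8 and 1.25 CPM, and its relative Flt1 at 0.520, 0 and 0.0629 CPM against 68.6, 65.7 and 3.21 CPM. Egfl7 and Eng were the 2 markers whose groups overlapped: pool 3 had 1.70 and 0.680 CPM of them, and single fiber 1 had 1.97 and 0.779 CPM. In the edgeR fit without pool 3, 15 of the 16 markers passed, beside 3.99% of all genes called higher in pools in that fit. Aqp1 had an edgeR adjusted p = 0.00161 there and Pecam1 0.00282. That fit leaves out the pool closest to the single fibers, so the count only describes the list.

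Globin mRNA, the mark of red blood cells, was likewise near 0 in single fibers. The 7 erythroid markers summed to 0.935, 0.510 and 0.252 CPM there and to 256, 341 and 62.1 CPM in pools. Of 5 tested members 1 was called and 4 had groups that did not overlap, and since the globin genes passed the filter through the pools alone, these counts too are a description. Hba-a2 (chromosome 11, plus strand, 32296489 to 32297298) stood at 0, 0.0392 and 0.0629 CPM against 37.5, 39.8 and 12.6 CPM, 2 reads against 1283. Its ratio of scaled reads was 758 (counting interval 210 to 6269) and it rose in the pools with an edgeR adjusted p = 0.0371. Hba-a1, its neighbour, stood at 0, 0.157 and 0 CPM against 54.6, 50.7 and 13.8 CPM, with a log2 fold change of -9.17 ± 1.11 and an edgeR adjusted p = 0.0527.

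The beta-globin genes gave the same picture and also missed the threshold. Hbb-bs stood at 0, 0 and 0.189 CPM against 131, 218 and 26.6 CPM, with an edgeR adjusted p = 0.0584, and Hbb-bt at 0, 0.0784 and 0 CPM against 31.8, 30.2 and 8.46 CPM, with an edgeR adjusted p = 0.0527. Alas2, which starts heme synthesis in erythroid cells, was not apart, with 0.779, 0.157 and 0 CPM against 1.03, 0.478 and 0.604 CPM. Reads can be split between the near copies, so each globin gene's own value is uncertain: 89.3% of the 50-base windows in Hba-a2 transcripts also occur in Hba-a1, and 58.3% of those in Hbb-bt occur in Hbb-bs. In the edgeR fit without pool 3 all 4 globin genes passed, with edgeR adjusted p between 0.00165 and 0.00312. In that fit 3.99% of all genes were called higher in pools.

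The alpha-globin genes are shown with their promoters because the sequence before their starts is shared too. Any part of that sequence in their values was not tested. The lines give the 100 bases before each start in RefSeq (GRCm38.p6, plus strand), at chr11:32283572-32283671 for Hba-a1 and chr11:32296392-32296491 for Hba-a2. Capitals mark a CCAAT box (CCAAT, or ATTGG on the other strand), which 33.8% of all 32851 promoter windows hold within 250 bases, and a TATA-like box (ATATAA, or TTATAT), which 9.10% hold.
Hba-a1: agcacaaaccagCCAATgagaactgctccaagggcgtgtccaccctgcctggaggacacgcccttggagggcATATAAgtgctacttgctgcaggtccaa
Hba-a2: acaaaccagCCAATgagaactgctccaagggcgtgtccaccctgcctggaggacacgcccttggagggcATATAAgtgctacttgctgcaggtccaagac

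**Figure D2:**
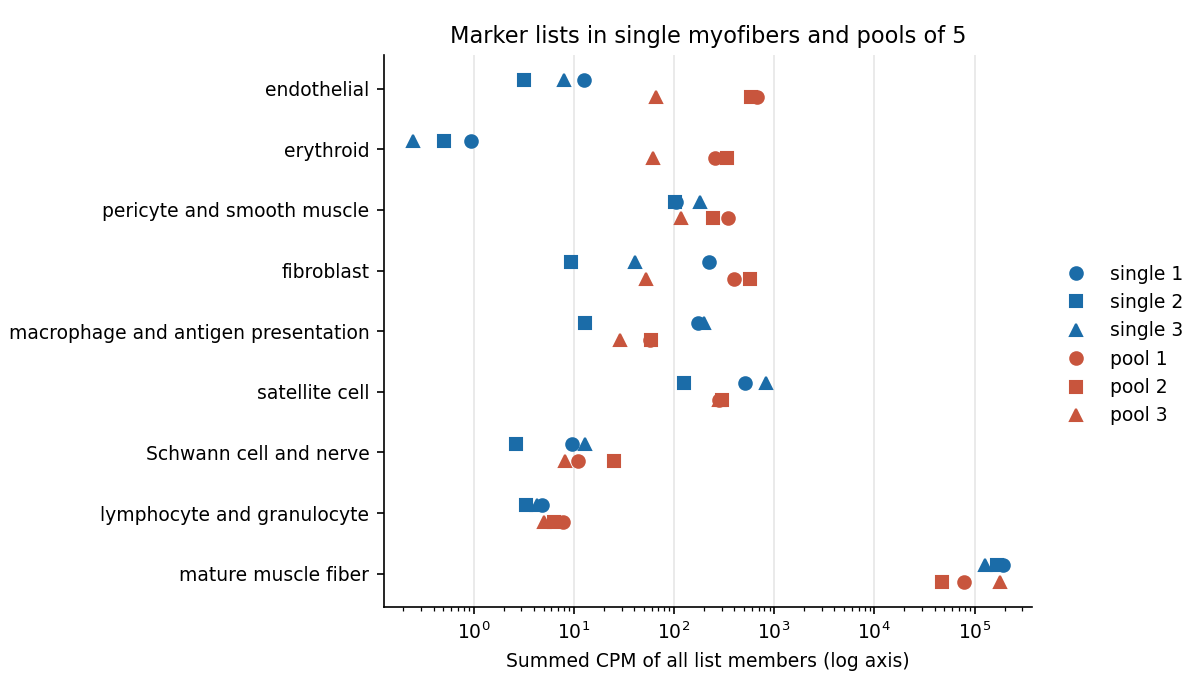
Summed CPM of all members of 9 marker lists in each of the 6 libraries, on a log axis, with single fibers in blue and pools of 5 in red. The endothelial and erythroid lists are separate between the groups, at 3.21 to 12.6 against 66.1 to 668 CPM and at 0.252 to 0.935 against 62.1 to 341 CPM, while the other plotted lists overlap except the lymphocyte and granulocyte list, which is at 3.33 to 4.78 against 5.10 to 7.78 CPM. The tendon and adipocyte lists are not plotted.

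Genes of pericytes, the mural cells of capillaries, were also low in single fibers, with exceptions. Rgs5, a regulator of G protein signalling that marks pericytes, stood at 0.104, 0.0392 and 0.566 CPM against 203, 140.5 and 11.7 CPM. Its log2 fold change was -9.03 ± 1.42 with an edgeR adjusted p = 0.128, and the groups did not overlap. Notch3, the Notch receptor of mural cells, was apart as well, at 0.623, 0.118 and 0.126 CPM against 5.90, 9.08 and 0.793 CPM. Kcnj8, a potassium channel subunit, and Myh11, smooth muscle myosin, overlapped, because pool 3 had 0.378 and 0.151 CPM of them. Abcc9, the sulfonylurea receptor that muscle fibers also use, ran the other way, at 97.5, 102 and 174 CPM against 67.1, 44.7 and 97.6 CPM. Of the 11 members 7 were tested. Of these, 4 had an unadjusted edgeR p under 0.05 toward pools, beside 7.06% of all genes, and 2 were apart, beside 8.28%. Those 2, Rgs5 and Notch3, were near 0 in single fibers and passed the filter through the pools, so the counts only describe the list. Without pool 3, 6 of 9 tested members passed, beside 3.99% of all genes called higher in pools in that fit.

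Markers of fibroblasts did not separate the groups. All 14 tested members had higher fitted values in pools, with a median log2 fold change of -1.62, but none had an unadjusted edgeR p under 0.05 and none was apart. Single fiber 1 carried a fibroblast signal of its own. Dcn, a matrix proteoglycan, stood at 31.1, 1.45 and 1.51 CPM in single fibers and 58.1, 139.9 and 8.27 CPM in pools, and Col3a1, a fibrillar collagen, at 49.98, 2.63 and 7.05 CPM against 43.1, 103 and 12.01 CPM. For both genes single fiber 1 exceeded pool 3.

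Of 16 macrophage and antigen presentation markers 4 passed the filter, and 4 had no read in any single fiber. The list summed to 175, 12.9 and 201 CPM in single fibers, most of it Cd68 in single fibers 1 and 3, and to 57.65, 59.6 and 29.1 CPM in pools. Cd68, a lysosomal protein of macrophages, stood at 152, 0.902 and 188 CPM in single fibers against 19.7, 9.08 and 15.0 CPM in pools, while Lyz2, the lysozyme of myeloid cells, was at 0.935, 0.0784 and 0 CPM against 0.486, 3.46 and 2.72 CPM. Cd68 was high in single fibers 1 and 3, where Lyz2 had under 1 CPM, and in the edgeR fit without single fiber 2 its log2 fold change was 3.54 with an adjusted p = 0.0751. H2-Ab1 and H2-Eb1, chains of MHC class II, had 0 reads in single fibers, and with Cd74, their chaperone, they passed in the edgeR fit without pool 3. Lymphocyte, Schwann cell, tendon and adipocyte markers gave 2 or 3 tested members each, and none had an unadjusted edgeR p under 0.05. In the tendon list 1 member was apart in each direction. Both tested adipocyte markers were apart toward pools, and that list summed to 40.8, 31.9 and 33.1 CPM in single fibers against 70.6, 51.1 and 47.9 CPM in pools. Nearly all of it was Plin4, a lipid droplet protein that muscle fibers also make, at 39.95, 31.2 and 33.0 CPM against 68.0, 47.3 and 46.9 CPM, while Adipoq, the hormone of fat cells, had at most 0.304 CPM in any library.

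Of 22 tested genes of fatty acid uptake and oxidation 5 were apart, all toward pools, beside 8.28% of all genes, and 2 had an unadjusted edgeR p under 0.05. Lpl, the lipase that acts in the capillary lumen and that muscle fibers make, stood at 5.35, 78.0 and 9.25 CPM against 263, 448 and 111 CPM. The fatty acid transporter Cd36, shared by fibers and endothelium, stood at 8.47, 44.0 and 22.1 CPM against 116, 127 and 54.9 CPM. The groups were apart for both, with log2 fold changes of -3.15 ± 1.06 and -1.99 ± 0.66 and edgeR adjusted p = 0.426 and 0.417. The other 3 were Acsl1, which activates fatty acids, Acads, which oxidises short chains, and Etfb, which passes their electrons on, with log2 fold changes of -0.413, -0.995 and -0.880.

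The rest of the list overlapped. Fabp3, the fatty acid binding protein of the fiber itself, stood at 121, 589 and 87.3 CPM against 116, 79.9 and 661 CPM, highest in single fiber 2 and pool 3. Its log2 fold change was -0.10, a sign that turned in several other fits. Over all 22 members the median was -0.11, and 9 had higher fitted values in single fibers. Endothelial markers stood at 12.6 CPM at most in single fibers and 66.1 CPM at least in pools, and their part in the values of Lpl and Cd36 was not tested.

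Heat-inducible chaperones formed the second block of genes higher in pools. Dnajb1, a co-chaperone that delivers substrates to Hsp70, stood at 11.2, 24.2 and 24.1 CPM in single fibers and at 251, 718 and 185 CPM in pools. Its log2 fold change was -4.28 ± 0.72 with an edgeR adjusted p = 0.152. All 3 pools lay far above all 3 single fibers, pool 3 included. Hspa1a, one of the inducible Hsp70 genes, stood at 13.6, 1.25 and 10.5 CPM against 426, 991 and 26.5 CPM, and its near copy Hspa1b at 16.7, 1.61 and 8.62 CPM against 512, 1028 and 36.8 CPM. Both were apart, and pool 3 was far below the other pools. Of the Hspa1a windows 58.8% also occur in Hspa1b, so how their reads divide is uncertain.

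Other chaperones of the same response were less separate. Hsp90aa1, the inducible Hsp90, stood at 27.0, 30.6 and 30.9 CPM against 276, 698 and 59.0 CPM, and Dnaja1, another Hsp70 partner, at 21.5, 16.1 and 34.9 CPM against 159, 296 and 38.1 CPM. Hsph1, an Hsp110 that exchanges nucleotide on Hsp70, overlapped, at 37.0, 43.5 and 48.1 CPM against 493, 1173 and 43.1 CPM. Without pool 3 the 6 chaperones Dnajb1, Hspa1a, Hspa1b, Hsp90aa1, Dnaja1 and Hsph1 passed the edgeR test, with adjusted p from 0.00855 for Hsph1 to 0.0185 for Dnaja1. They were 6 of the 26 tested members of the stress list, beside 3.99% of all genes called higher in pools in that fit. On 6 libraries the median log2 fold change of the list was -0.12. There 6 members had an unadjusted edgeR p under 0.05 toward pools, beside 7.06% of all genes. Toward single fibers there were 2, beside 1.85%. The groups were apart for 6 toward pools and 1 toward single fibers, beside 8.28% and 5.15%.

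The rest of that list did not follow the chaperones. The small heat shock protein Hspb8 stood at 2610.1, 226 and 3175 CPM in single fibers against 603, 282 and 497 CPM in pools, and Hmox1, heme oxygenase, at 125, 65.0 and 181 CPM against 52.4, 18.4 and 65.8 CPM. Mt1, a metallothionein, stood at 2622, 1877 and 1471 CPM against 701, 329 and 1250.1 CPM and was apart in the direction of single fibers. None of the 3 passed, with edgeR adjusted p between 0.541 and 0.585. The log2 fold change of Hspb8 without single fiber 2 was 2.65, with an edgeR adjusted p = 0.170. Chaperones of the Hsp70 and Hsp90 machinery were highest in pools 1 and 2, the libraries with the most mitochondrial rRNA (38.3% and 34.2%), and Hspb8 was highest in single fibers 1 and 3. Endothelial markers ran in the same direction (668 and 583 CPM in pools 1 and 2), and the part of either in the chaperone values was not tested.

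The promoters of 3 of these chaperones are shown because they carry a paired unit of the heat shock factor's motif near their starts. They were chosen for holding it. The paired unit was searched as GAANNTTC or TTCNNGAA, each of which reads the same on both strands, in the 250 bases before each start in RefSeq (GRCm38.p6). It occurs in 12.8% of 32851 promoter windows. It also occurs in 7 of the 21 stress list genes that have an entry, where a gene counts if any of its windows holds it. The share by window and the share by gene are therefore not directly comparable. The lines give 120 bases before the start, on the minus strand, at chr17:34972157-34972276 for Hspa1a, chr17:34959239-34959358 for Hspa1b and chr5:149636316-149636435 for Hsph1, with the unit in capitals. None was found in the windows of Dnajb1, which says only that these letters are not there. Dnaja1 held the unit in 1 of its windows and not in the others, and Hsp90aa1 had no window to search.
Hspa1a: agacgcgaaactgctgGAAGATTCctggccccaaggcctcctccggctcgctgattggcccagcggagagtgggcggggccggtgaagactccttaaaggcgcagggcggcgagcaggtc
Hspa1b: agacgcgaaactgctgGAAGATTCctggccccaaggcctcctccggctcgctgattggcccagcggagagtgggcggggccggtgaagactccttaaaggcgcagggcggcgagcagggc
Hsph1: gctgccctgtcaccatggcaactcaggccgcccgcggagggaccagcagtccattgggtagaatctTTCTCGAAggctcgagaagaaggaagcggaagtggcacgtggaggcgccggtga

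Immediate early genes, which respond to a stimulus before any new protein is made, were partly higher in the pools. Of 36 tested members 12 had an unadjusted edgeR p under 0.05 in that direction, beside 7.06% of all genes, and 13 were apart, beside 8.28%. In the direction of single fibers there were 0 of either. Fosb, a subunit of the transcription factor AP-1, stood at 21.0, 4.31 and 17.0 CPM against 160.1, 93.8 and 133 CPM, with a log2 fold change of -3.19 ± 0.65 and an edgeR adjusted p = 0.165. Its partner Jun stood at 37.3, 28.9 and 69.2 CPM against 144, 179 and 131 CPM, and Junb at 67.2, 77.5 and 76.4 CPM against 195, 177 and 301 CPM. In these AP-1 genes pool 3 lay near the other pools or above them, unlike in the capillary genes.

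A further set of the list was high in pools 1 and 2 and intermediate in pool 3. Fosl2, another AP-1 subunit, stood at 4.88, 0.98 and 4.34 CPM against 56.3, 59.0 and 11.1 CPM, and Jund at 12.6, 4.90 and 5.41 CPM against 62.8, 46.2 and 22.1 CPM. Klf2, a factor that endothelial cells induce under flow, stood at 0.260, 1.29 and 0.126 CPM against 14.1, 39.8 and 3.13 CPM. Zfp36l1, which speeds mRNA decay, stood at 8.52, 3.18 and 4.97 CPM against 33.3, 35.8 and 23.5 CPM. The groups were apart for all 4, and none passed the edgeR test on 6 libraries, with edgeR adjusted p from 0.165 to 0.235.

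Other early genes overlapped between the groups. Fos itself stood at 190.3, 987 and 220.0 CPM in single fibers against 673, 537 and 1188 CPM, with an edgeR adjusted p = 0.733, and single fiber 2 lay among the pools. Btg2, an antiproliferative early gene, stood at 1047, 612 and 1178 CPM against 451, 326 and 854 CPM. Over the list the summed level overlapped between the groups, at 4048 to 5974 CPM against 4277 to 6575 CPM. Without pool 3, Fosb, Fosl2, Jund, Zfp36l1, Klf2 and Egr3 passed, beside 3.99% of all genes called higher in pools in that fit. Since endothelial and other cells also express these genes, the endothelial list (at most 12.6 CPM in single fibers, at least 66.1 CPM in pools) stands beside this result, and its part was not tested.

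**Figure D3:**
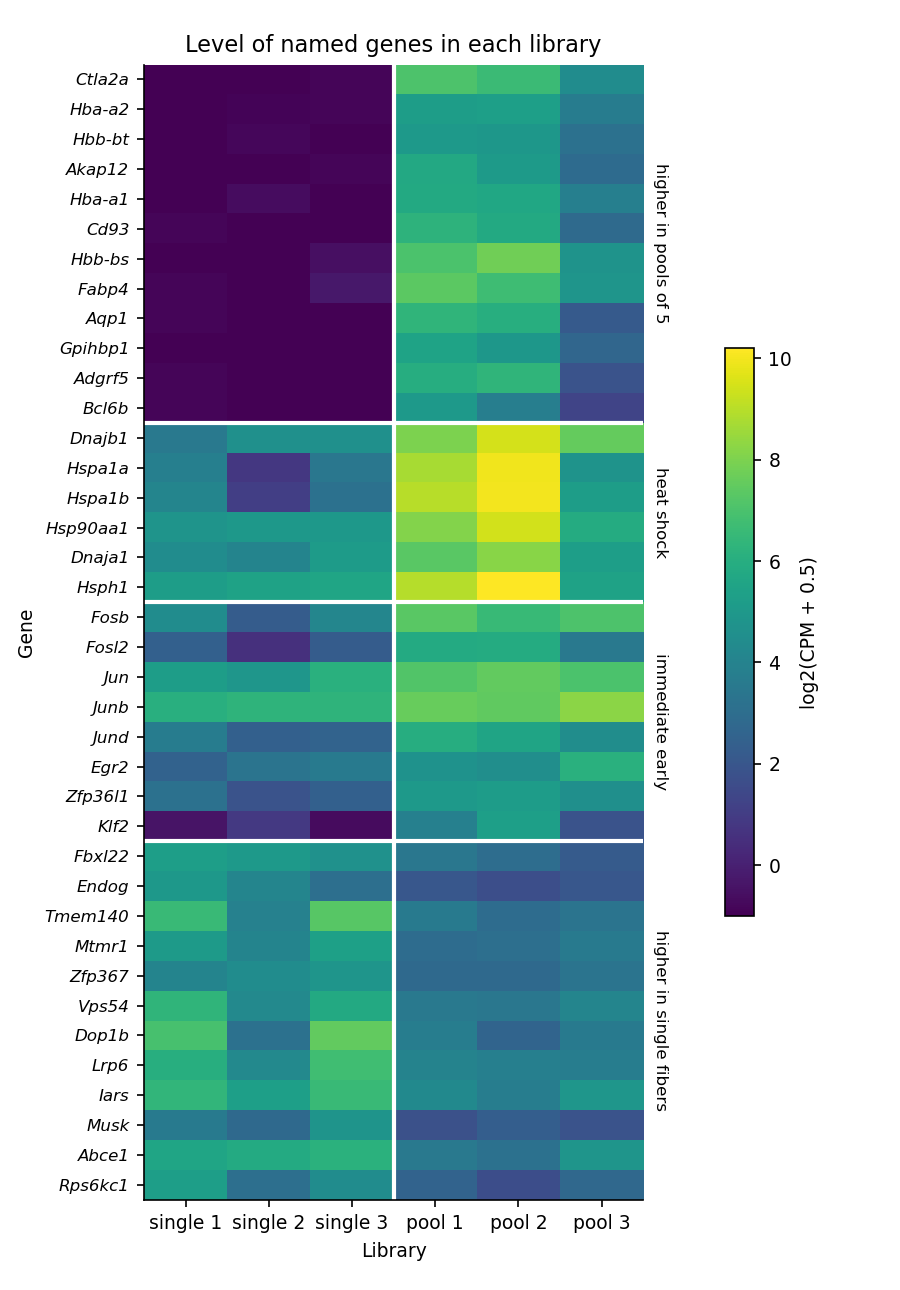
Level of named genes in the 6 libraries as log2(CPM + 0.5), from dark for low to yellow for high: the 12 named genes higher in pools, 6 chaperones, 8 immediate early genes and the 12 named genes higher in single fibers. Pool 3 is the darkest of the pools for the capillary genes and the chaperones but not for Fosb, Junb and Egr2, and single fiber 2 is low for Tmem140 (14.7 CPM) and Dop1b (8.66 CPM).

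Fiber type was read from the myosin heavy chains. Myh4 made up 99.2%, 95.7% and 99.4% of the adult myosin reads in single fibers 1 to 3 and 95.4%, 84.5% and 95.3% in pools 1 to 3. The Clopper-Pearson 95% interval was widest in pool 2, from 84.1% to 84.8%, and covers counting error only. Myh4 was the main chain in every library. The lowest single fiber was above the highest pool, and the exact two-sided permutation test gave p = 0.1, the smallest that 3 against 3 allows. The mean shares were 98.1% ± 2.11 and 91.7% ± 6.27 (SD, n = 3).

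The remaining myosin reads were divided between Myh1, the type IIx chain, and Myh2, and Myh2 exceeded Myh1 in single fibers 1 and 3 and in pool 3. The Myh1 share was 0.188%, 3.55% and 0.0943% in single fibers and 4.07%, 14.1% and 2.25% in pools, so that single fiber 2 lay within the range of the pools, and the exact permutation p was 0.2. Myh2, the type IIa chain, took 0.572%, 0.788% and 0.523% against 0.519%, 1.42% and 2.48%, with the highest share in pool 3. Myh7 took 0.0413% at most, in pool 2. By level, Myh4 stood at 16091, 16366 and 12004 CPM against 9072, 3909 and 8679.8 CPM, with groups that did not overlap and an edgeR adjusted p = 0.678.

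**Figure D4:**
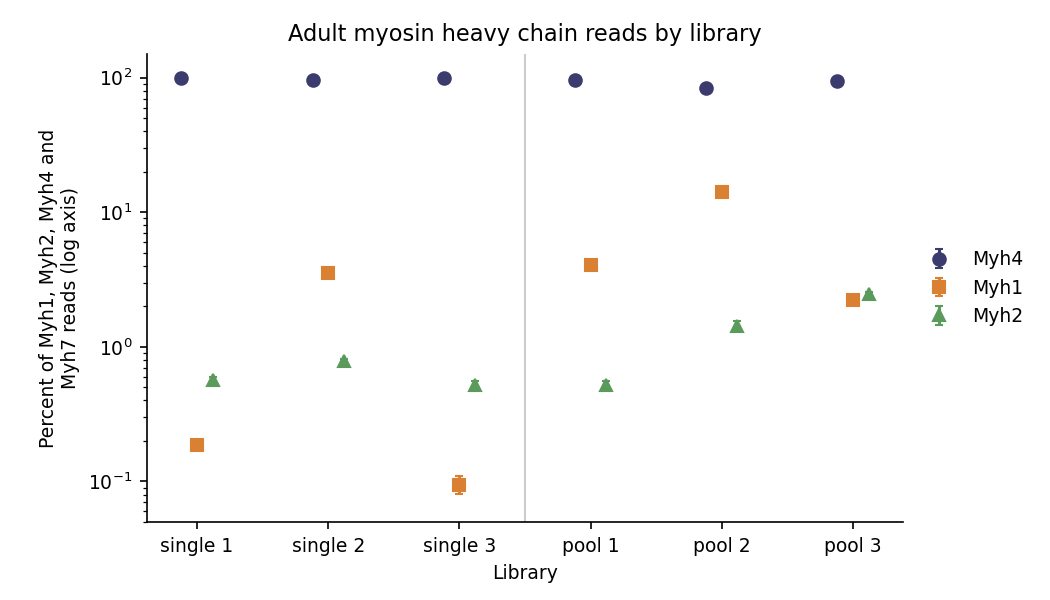
Share of Myh4, Myh1 and Myh2 in the adult myosin heavy chain reads of each library, in percent on a log axis, with Clopper-Pearson 95% intervals as bars where they exceed the symbols. Myh4 is above 84% in all 6 libraries, and Myh1 ranges from 0.0943% in single fiber 3 to 14.1% in pool 2.

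Slow sarcomere genes had higher fitted values in the pools, though slow myosin was nearly absent. Of 13 slow sarcomere genes 7 were tested, and all 7 had higher fitted values in pools. Of these, 3 had an unadjusted edgeR p under 0.05, beside 7.06% of all genes, and 3 were apart, beside 8.28%. Myoz2, a Z-disc protein of slow fibers that binds calcineurin, stood at 0.0520, 8.51 and 0.692 CPM against 31.7, 75.6 and 65.1 CPM. Csrp3, a Z-disc LIM protein, stood at 58.0, 24.1 and 20.1 CPM against 139, 312 and 64.3 CPM, and Casq2, the calcium buffer of slow and cardiac muscle, at 1.82, 12.7 and 0.692 CPM against 26.0, 30.3 and 15.3 CPM. Their edgeR adjusted p were 0.389, 0.358 and 0.541.

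Single fiber 2 had the highest Myoz2 and Casq2 of the single fibers, as it had the highest Myh1. Mb, myoglobin, showed the same feature without a group difference, at 12.3, 204 and 13.7 CPM against 59.5, 67.1 and 234 CPM. Ankrd2, a titin-associated protein of slow fibers that responds to stretch, stood at 13.7, 15.5 and 5.35 CPM against 137, 371 and 53.8 CPM. Its groups were apart, with a log2 fold change of -4.02 ± 0.82 and an edgeR adjusted p = 0.165, and it passed without pool 3 at 0.0145. Ankrd1, its relative induced by injury and stress, ran differently, at 5093, 128 and 3370.4 CPM against 1351, 283 and 223 CPM, high in single fibers 1 and 3. Without single fiber 2 the log2 fold change of Ankrd1 was 2.77, with an edgeR adjusted p = 0.272.

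Notch targets were among the satellite cell markers with higher values in pools. Hey1 and Heyl, repressors induced by Notch, stood at 0.156, 0 and 0.126 CPM and at 0.364, 0 and 0 CPM in single fibers against 6.51, 3.35 and 0.868 CPM and 3.77, 7.17 and 0.982 CPM in pools. Hes1, another repressor of this family that many cells express, stood at 5.40, 68.1 and 10.3 CPM against 104, 150.2 and 112 CPM. Pax7, the factor that defines satellite cells, was low everywhere, at 0.208, 0.510 and 0.126 CPM against 1.22, 4.18 and 0.604 CPM. The groups were apart for all 4, and none passed, with edgeR adjusted p from 0.246 to 0.538. Hey1, Heyl and Pax7 were low in single fibers and passed the filter through the pools alone, so they had to differ. Of the 10 tested satellite cell markers 6 were apart toward pools, these included, beside 8.28% of all genes. Toward single fibers 0 were apart, beside 5.15%. Myod1, the myogenic factor of activated satellite cells that fibers can also express, ran the other way in 2 libraries, at 390.4, 12.9 and 719 CPM against 105, 89.2 and 59.5 CPM. The fit without single fiber 2 gave a log2 fold change of 2.72, with an edgeR adjusted p = 0.143. Endothelial cells also express Hey1 and Heyl, and the part of the endothelial signal in this result was not tested.

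By summed list level, the fast fiber's contractile and glycolytic core was lower in pools 1 and 2 than in the other 4 libraries. Ckm, the muscle creatine kinase, stood at 23942, 17229.7 and 17108 CPM in single fibers and at 4803, 3505 and 26108 CPM in pools. Gapdh, of glycolysis, stood at 3401, 3593 and 1861 CPM against 371, 132 and 3925 CPM, and Atp2a1, the fast calcium pump of the sarcoplasmic reticulum, at 7744, 6471 and 4955 CPM against 1086, 413 and 6643 CPM. Pool 3 was at or above the level of single fibers for all 3 genes, so the groups overlapped, and the edgeR adjusted p were 0.764, 0.753 and 0.716. Without pool 3, Gapdh and Atp2a1 passed, higher in single fibers, with log2 fold changes of 3.63 ± 0.74 and 3.17 ± 0.72.

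The lists of this core gave the same order. Fitted values were higher in single fibers for 19 of 22 fast sarcomere genes, 21 of 21 genes of excitation-contraction coupling and 21 of 24 of glycolysis, glycogen and creatine, with medians of 0.45, 0.59 and 0.56, beside 0.08 over all genes. Each list had 2 members whose groups were apart, beside 5.15% of all genes. The fast sarcomere list had a summed 255823, 256219 and 171038 CPM against 110486, 63319 and 264206 CPM, with pool 3 the highest of the 6 libraries. Actn3, the alpha-actinin of fast fibers, stood at 9769, 4514 and 5531 CPM against 2439.8, 1092 and 5109.7 CPM and overlapped. Neb, the giant protein along the thin filament, stood at 4524, 9489 and 5131 CPM against 3957, 2127 and 3193 CPM and was apart. For Neb, as for Myh4, pool 3 was below pool 1 and did not lie with the single fibers.

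Housekeeping complexes followed. All 31 proteasome genes had higher fitted values in single fibers, with a median of 0.74, yet none had an unadjusted edgeR p under 0.05 and none was apart. Psma3, a subunit of the core particle, stood at 367, 673 and 360.4 CPM against 138, 102 and 471 CPM. Of 58 tested cytosolic ribosomal protein genes 54 had higher fitted values in single fibers, with a median of 0.45. Of these genes 3 were apart toward single fibers and 2 toward pools, beside 5.15% and 8.28% of all genes. Rplp0, of the ribosomal stalk, stood at 837, 661 and 499 CPM against 197, 167 and 691 CPM. As in the summed fast fiber lists, pools 1 and 2 were low and pool 3 was not.

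**Figure D5:**
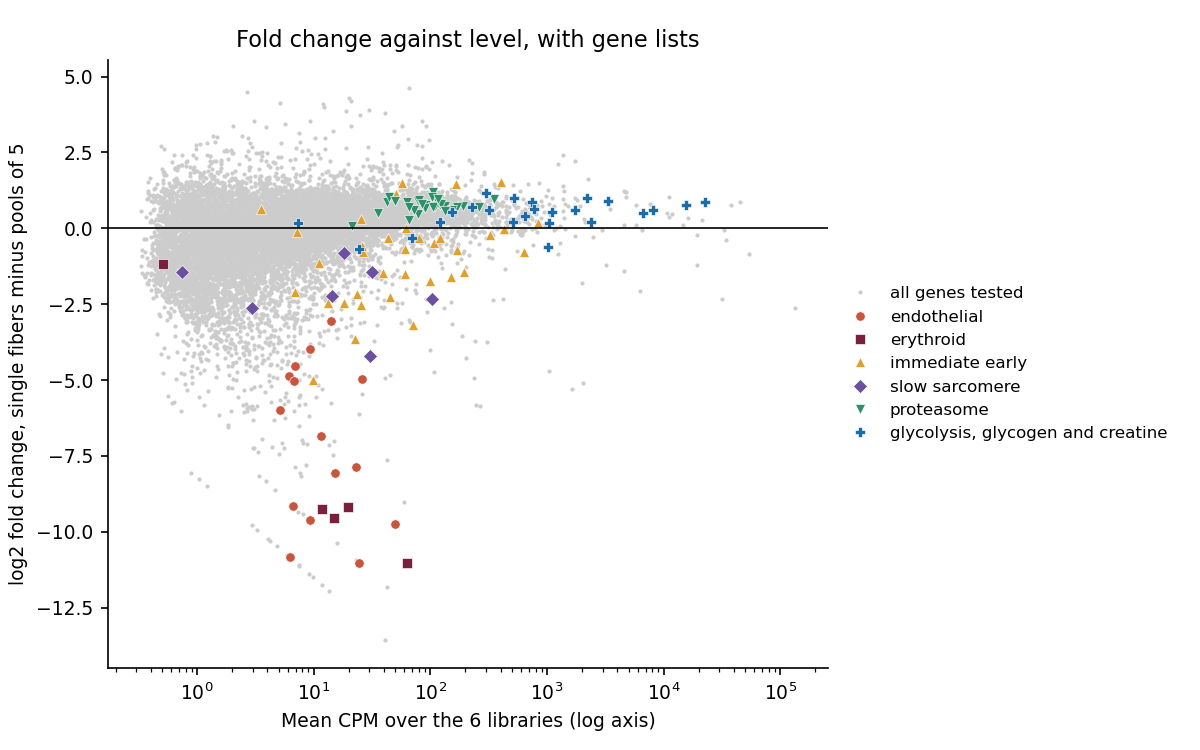
Fitted log2 fold change (single fibers minus pools of 5) against the mean CPM of the 6 libraries on a log axis, for all 12700 tested genes in grey and for 6 gene lists in colour. Endothelial and erythroid genes lie lowest, with medians of -6.86 and -9.26, and the proteasome genes lie together above 0 with a median of 0.74. Fitted values of genes with 0 reads in a group depend on the prior count of the fit.

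Mitochondrial rRNA took a large part of the reads in pools 1 and 2. The rRNAs mt-Rnr1 and mt-Rnr2 took 5.32%, 3.15% and 7.21% of counted reads in single fibers and 38.3%, 34.2% and 2.39% in pools, with an exact two-sided permutation p = 0.4. Pool 3 was the lowest of all 6 libraries and pools 1 and 2 the highest, so the pools differed more among themselves than from the single fibers. Mitochondrial mRNAs were at 6.59%, 19.6% and 8.88% against 10.6%, 20.5% and 10.6%. Of the 13, mt-Co1, a cytochrome oxidase subunit, was the only one whose groups were apart, at 13202, 10886 and 11222 CPM against 20128, 39961 and 21324 CPM, with an edgeR adjusted p = 0.662. None of 41 nuclear-encoded respiratory chain genes was apart, and 29 of them had higher fitted values in single fibers, with a median of 0.24.

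Other signs of library makeup ran with the rRNA. After thinning all libraries to 8434050 reads, 19759, 14745 and 17108 genes had a read in single fibers and 26569, 34190 and 16507 in pools, with an exact permutation p = 0.3. Genes of the receptor families for smell, pheromones and taste are known mainly from sensory tissue, with some members reported elsewhere. Of 1504 such genes 18.4%, 2.39% and 7.51% had a read in single fibers and 43.6%, 68.8% and 2.33% in pools. The predicted gene Gm10800 stood at 177, 14.5 and 152 CPM against 1897, 9980.5 and 18.2 CPM. Pools 1 and 2 were highest and single fiber 2 and pool 3 lowest in each of these measures. Their part in the lower level of fiber genes in pools 1 and 2 was not tested. With predicted genes and mitochondrial rRNA left out of the table and of the library sizes, edgeR called 8 genes, all higher in pools: Ctla2a, Akap12, Cd93, Fabp4 and the 4 globin genes.

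The spread among the single fibers was not larger than that among the pools. The median SD of log2(CPM + 0.5) over 4888 genes was 0.52 in single fibers and 0.64 in pools, and the SD was larger in the pools for 2741 of these genes. This order turned when pool 3 was left out, where the single fibers had the larger median by 0.31.

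No gene passed the edgeR test in the direction of single fibers on 6 libraries, and the 12 with the smallest p there had edgeR adjusted p from 0.225 to 0.337. Fbxl22, a muscle F-box protein that recruits substrates to a ubiquitin ligase, led them at 38.2, 32.5 and 24.7 CPM in single fibers against 10.5, 7.41 and 4.08 CPM in pools, a log2 fold change of 2.12 ± 0.48. Endog, a mitochondrial nuclease, stood at 30.6, 16.8 and 7.93 CPM against 3.65, 2.75 and 3.66 CPM. Abce1, which recycles ribosomes, stood at 47.0, 57.2 and 71.0 CPM against 11.01, 8.602 and 27.9 CPM. In these 3 genes all single fibers were above all pools, single fiber 2 included. DESeq2 on the same 6 libraries called 28 genes in this direction. Among them were Fbxl22, Endog, Tmem140, Dop1b, Mtmr1, Vps54 and Zfp367, with DESeq2 adjusted p from 0.00253 to 0.0425.

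Several others of the 12 were set apart mainly by single fibers 1 and 3. Tmem140, a membrane protein, stood at 96.5, 14.7 and 154 CPM against 11.9, 7.29 and 9.32 CPM, and Lrp6, a Wnt co-receptor, at 64.7, 18.8 and 109 CPM against 15.7, 13.9 and 13.0 CPM. Vps54, of the vesicle tethering complex GARP, stood at 80.7, 18.6 and 56.0 CPM against 11.01, 10.3 and 16.4 CPM. Dop1b overlapped, at 123, 8.66 and 181 CPM against 13.0, 5.615 and 11.7 CPM, because single fiber 2 lay below pools 1 and 3. For Iars, a tRNA synthetase, Mtmr1, a lipid phosphatase, Zfp367 and Rps6kc1 the groups were apart, with log2 fold changes from 1.53 to 2.22. In the edgeR fit without single fiber 2, Tmem140 and Dop1b had log2 fold changes of 3.72 and 3.91, both with an adjusted p = 0.0724, and Lrp6 and Vps54 of 2.62 and 2.44.

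Genes of the neuromuscular junction were in part higher in single fibers. Musk, the receptor kinase that organises the postsynaptic membrane, stood at 11.4, 6.66 and 27.2 CPM against 2.92, 4.54 and 3.17 CPM, a log2 fold change of 2.10 ± 0.60 with an edgeR adjusted p = 0.336. Ncam1, an adhesion molecule of the junction that spreads along the fiber after denervation and that was taken from the denervation list, stood at 10.3, 8.55 and 9.31 CPM against 2.61, 3.46 and 4.45 CPM and was apart. Dok7, the adaptor that activates Musk, stood at 79.8, 9.88 and 76.2 CPM against 17.8, 10.5 and 12.5 CPM and overlapped, with single fiber 2 the lowest of all 6. Without single fiber 2 its log2 fold change was 2.52, with an edgeR adjusted p = 0.116. Of the 14 junction genes 3 were apart in the direction of single fibers, beside 5.15% of all genes, and 2 had an unadjusted edgeR p under 0.05 there. In the other direction 0 were apart and 1 had such a p: Utrn, the relative of dystrophin at the junction, stood at 8.26, 4.31 and 5.47 CPM against 24.5, 33.2 and 4.45 CPM, and without pool 3 it passed as higher in pools, with an edgeR adjusted p = 0.0380.

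Of 21 tested genes of denervation, atrophy and mechanical stress 2 were apart toward single fibers and 3 toward pools, beside 5.15% and 8.28% of all genes, with a median of 0.78. Some others of the list were high in single fibers 1 and 3 and low in single fiber 2. Trim63, the ubiquitin ligase MuRF1 of atrophy, stood at 1305, 111 and 1609 CPM against 467, 411 and 229 CPM. Foxo1, the transcription factor that drives it, stood at 83.1, 7.80 and 129 CPM against 19.5, 17.7 and 14.7 CPM, with a log2 fold change of 2.08 ± 0.83 and an edgeR adjusted p = 0.508. Clcn1, the chloride channel of the fiber membrane, followed the same order, at 205, 23.9 and 146 CPM against 46.2, 19.8 and 28.4 CPM. For Trim63 and Foxo1 single fiber 2 was the lowest of the 6 libraries, and the groups overlapped for all 3. In the edgeR fit without single fiber 2 the log2 fold changes of Trim63, Foxo1 and Clcn1 were 1.99, 2.62 and 2.48, with adjusted p from 0.111 to 0.240.

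Of the core clock genes, Rora, a nuclear receptor that activates the clock factor Arntl, was apart in the direction of single fibers at 111, 58.8 and 119 CPM against 31.0, 29.7 and 55.2 CPM, with an edgeR adjusted p = 0.465, and 11 of the 17 tested members had higher fitted values in pools. Among nuclear and imprinted noncoding RNAs, H19 stood at 263, 148 and 271 CPM against 413, 624 and 320.2 CPM and Gas5 at 236, 143 and 248 CPM against 107, 99.99 and 123 CPM. Their groups were apart in opposite directions, and neither passed. Neat1, the scaffold RNA of nuclear paraspeckles, followed the libraries, at 2554, 129 and 2759.6 CPM against 1389.9, 1247 and 179 CPM, with the lowest values in single fiber 2 and pool 3. Its log2 fold change without single fiber 2 was 1.51, with an edgeR adjusted p = 0.511.

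Leaving out single fiber 2 and pool 3 together, an alternative chosen after the data were seen, gave 3313 calls among 13832 genes (24%), 1386 higher in single fibers (10%) and 1927 in pools (13.9%). This removes the library of each group that lay closest to the other group, which widens the difference by construction, and it leaves 2 libraries a group. In it 16 endothelial, 4 erythroid and 18 immediate early genes were higher in pools, and 22 proteasome, 11 ribosomal protein and 5 immediate early genes were higher in single fibers.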

How the data were processed

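RNA of single or pooled myofibers was read as SMART-Seq HT libraries, and the authors deposited raw read counts per Ensembl gene. Per the submitters' processing notes, HISAT2, SAMtools and featureCounts were used with GRCm38 (mm10). Their versions, the annotation release, strand and multimapping settings are not given in the sources used here. Gene names came from GENCODE vM21, which held 55480 of the 55573 identifiers, with 93 unmatched. Reads on overlapping or antisense genes may not be told apart.

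The counts of the 6 libraries were filtered with filterByExpr, leaving 12700 genes, scaled by TMM and tested with edgeR 4.0.16 (quasi-likelihood, no covariate, Benjamini-Hochberg adjusted p under 0.05) in R 4.3.3. The steps were tested on simulated data. Single values per library were compared with exact two-sided permutation tests (scipy 1.17.1), for complexity after thinning every library to 8434050 reads with seed 20. Alternatives were DESeq2 1.42.0, limma 3.58.1 (voom), other scaling factors, other filters, all 12 libraries, a replicate block, fits without each library, and a fit without single fiber 2 and pool 3 that was chosen after seeing the data.

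Named genes were, per direction, the 12 of largest change among those called (mean of 10 CPM or more in the higher group, no overlap), filled up with the smallest unadjusted p and then given as not passing. In each of 28 lists the 3 of highest CPM and the 2 of smallest p were added, with the myosin chains, mt-Rnr1, mt-Rnr2, Gm10800, Xist and Ddx3y. Other list members named were chosen after their values were seen. The comparison and the lists were chosen with earlier results of these data known. Whole muscle and pools of 20 fibers entered only the fit on 12 libraries. Promoters came from RefSeq (GRCm38.p6).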

Additional observations from a re-analysis of the deposited data

How the results depend on the processing

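The limits are few libraries, the makeup of each and the sparse reads on markers of other cells. With 3 libraries a group an exact permutation test cannot go below p = 0.1, and the edgeR calls moved with single libraries. Totals of 8434050 to 27787120 reads leave a gene with 0 reads in a library a level of up to 3 counts of that total, and intervals cover counting error only. Whether each library came from its own animal is not given in the sources used here. Log2 changes of genes at or near 0 reads in a group depend on the prior count of the fit, and they are not bounds.

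Calls of edgeR at an adjusted p under 0.05, 2 with the settings of the report, stayed at 2 with relative log expression or upper-quartile factors. They were 768 with no filter on low counts (74 higher in single fibers, 694 in pools), 8 with a mean of 10 CPM or more (all 8 in pools), 340 in the fit on all 12 libraries (13 and 327) and 8 without predicted genes and mitochondrial rRNA (all 8 in pools). DESeq2 called 422 (28 and 394). limma-voom called 0, so 0 in pools and 0 erythroid genes. Leaving out 1 library in turn gave 0 to 833 calls, 0 to 231 of them higher in single fibers and 0 to 602 in pools, and only the fit without pool 3 called any. Without single fiber 2 and pool 3 there were 3313 (1386 and 1927).

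The replicate numbers were also fitted as a replicate block. That fit called 0 genes, 0 in pools and 0 erythroid, with 717 at an unadjusted edgeR p under 0.05 (135 higher in single fibers and 582 in pools). The correlations between the deviations of same-numbered libraries were 0.51, -0.42 and -0.44, and no label says that a number marks a shared animal or day, so the numbers were not taken as a pairing.

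Among the lists, the fit with no filter called, in pools, 16 endothelial, 9 immediate early, 6 stress, 6 pericyte, 5 slow sarcomere, 4 fibroblast, 4 erythroid, 3 macrophage, 3 satellite cell, 2 fatty acid, 1 tendon, 1 denervation and 1 noncoding RNA gene. In single fibers it called 1 gene each of the denervation, neuromuscular junction, noncoding RNA and macrophage lists. DESeq2 called, in pools, 14 endothelial, 10 immediate early, 6 stress, 4 erythroid, 3 pericyte, 3 satellite cell, 2 slow sarcomere, 1 fatty acid, 1 denervation and 1 noncoding RNA gene. The fit on 12 libraries called, in pools, 13 endothelial, 7 immediate early, 6 stress, 4 erythroid, 3 satellite cell, 2 pericyte, 1 denervation and 1 noncoding RNA gene. The fits with a mean of 10 CPM or more and without predicted genes and mitochondrial rRNA each called 1 endothelial and 4 erythroid genes in pools.

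Without single fiber 2 and pool 3 the calls in single fibers were 22 proteasome, 11 ribosomal protein, 11 denervation, 8 glycolysis, 7 excitation-contraction coupling, 5 respiratory chain, 5 immediate early, 5 stress, 4 fast sarcomere, 3 neuromuscular junction, 3 mature fiber, 2 clock, 2 noncoding RNA, 2 satellite cell, 1 pericyte and 1 macrophage gene. Those in pools were 18 immediate early, 16 endothelial, 7 stress, 6 pericyte, 6 macrophage, 5 slow sarcomere, 5 fatty acid, 5 fibroblast, 5 satellite cell, 4 erythroid, 4 mitochondrial mRNA, 3 noncoding RNA, 2 fast sarcomere, 2 glycolysis, 2 denervation, 2 mature fiber, 1 neuromuscular junction and 1 clock gene. The medians were 1.07 for excitation-contraction coupling, -1.36 for mitochondrial mRNA and -10.88 for the erythroid list.

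With 1 library left out in turn, calls in pools ranged from 0 to 15 for endothelial, 0 to 6 for immediate early, stress and pericyte, 0 to 4 for erythroid, 0 to 3 for macrophage, 0 to 2 for slow sarcomere and 0 to 1 for denervation, neuromuscular junction, noncoding RNA and satellite cell genes. Calls in single fibers ranged from 0 to 2 for excitation-contraction coupling, glycolysis and denervation and from 0 to 1 for fast sarcomere, ribosomal protein, proteasome, neuromuscular junction and mature fiber genes. List medians ranged over these fits from 0.13 to 1.21 for fast sarcomere, 0.27 to 1.22 for excitation-contraction coupling, 0.29 to 0.77 for ribosomal protein, 0.25 to 1.84 for proteasome, 0.37 to 0.77 for neuromuscular junction, 0.33 to 1.5 for mature fiber, -0.24 to 0.058 for clock, -3.76 to -1.03 for fibroblast, -10.35 to -8.61 for erythroid and -2.54 to -1.81 for satellite cell genes. List medians also changed sign over these fits for the respiratory chain (-0.44 to 0.86) and fatty acid (-0.62 to 0.22) lists. The same held for the mitochondrial mRNA (-1.04 to 0.38) and stress (-0.32 to 0.091) lists. The median of the neuromuscular junction list was 0.34 with upper-quartile factors. With a mean of 10 CPM or more, which leaves fewer members, the medians were 0.26 for the neuromuscular junction, -0.56 for clock, -8.36 for endothelial and 0.30 for satellite cell genes.

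Of the 125 genes followed through these settings, 4 changed direction in some fit. Of these, Mb was called without single fiber 2 and pool 3, at -2.32 with an edgeR adjusted p = 0.000679, and the others were not called in the fits where they turned. The log2 fold change of Myh2 turned to 0.054 with limma-voom, 0.10 with the replicate block and 0.40 without single fiber 2 and pool 3, and it ranged from -0.61 to 0.84 with 1 library left out. That of Fabp3, -0.10 in the report, turned to 0.043 with limma-voom, 0.027 with the replicate block and 0.057 without single fiber 2 and pool 3, and it ranged from -1.46 to 1.53 with 1 library left out. That of Ddx3y ranged from -0.034 to 0.86, and that of Mb from -3.21 to 0.38. The difference in median SD, single fibers minus pools, ranged from -0.32 to 0.31, with 0.31 in the fit without pool 3. The other measures of the libraries, detected genes, mitochondrial rRNA, receptor-family genes and the Myh4 share, kept their direction under each of their alternatives. The cause of these changes was not tested.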
